A study of Mus musculus with 15 samples.

Results

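The genes described here are those that carry new proteins into the endoplasmic reticulum (ER) and fold them there. They are 44 genes picked by symbol, and all 44 were among the 12798 genes of the deposited expression table. They comprise 11 chaperones and cofactors, 6 members of the protein disulfide isomerase family, 4 proteins of the signal recognition particle, 5 translocon genes, 4 subunits of the translocon-associated protein (TRAP) complex, 5 signal peptidase genes, 5 oligosaccharyltransferase genes and 4 stress regulators. The choice was by function and not by a threshold on measured values, but it was made with earlier results of these data known.

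RNA was sequenced from progenitors of innate lymphoid cells (ILCs) sorted from C57BL/6 mouse bone marrow, in 15 libraries. ALP, the lymphoid progenitor (3 libraries), carried Tcf7EGFP/+ and was gated as Lin- Kit+ 2B4+, without a4b7, with high Flt3 and with IL-7Ra. The early innate lymphoid progenitor (EILP) was gated as Lin- Kit+ 2B4+ with a4b7 and the Tcf7 reporter but without Thy1. EILP_WT (3 libraries) carried Tcf7EGFPnull/+, so that these control cells already had 1 null allele of Tcf7, and EILP_KO (2 libraries) carried Tcf7EGFPnull/-. Cells named sEILP (2 libraries) and cEILP (3 libraries) came from Tcf7GFP Zbtb16GFP mice and were further split into Zbtb16low Flt3high and Zbtb16high Flt3low cells. ILCP, the later ILC progenitor (2 libraries), carried Tcf7EGFP/+ and was gated on Thy1 and IL-7Ra beside the Tcf7 reporter. Reporter strain and stage cannot be told apart where sEILP or cEILP is compared with ALP or ILCP, and reporter allele and stage cannot be told apart between EILP_WT and ALP or ILCP. ALP and ILCP shared a genotype, as did sEILP and cEILP. The labels give no age. Nor do they say whether replicates were separate animals, and each p-value therefore rests on a spread between libraries that may be technical. Values are log2 expression on a scale near CPM (counts per 1000000). In such bulk samples, fewer cells of a type and less RNA per cell cannot be told apart.

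A protein destined for secretion or for a membrane is recognised by its signal peptide, which the signal recognition particle binds as it leaves the ribosome. The ribosome is then docked on the Sec61 channel, the signal peptide is removed by signal peptidase, sugars are attached by oligosaccharyltransferase, and chaperones and disulfide isomerases fold the chain. When unfolded chains accumulate, the unfolded protein response acts through the transcription factors XBP1, ATF6 and ATF4. ATF6 and XBP1 act partly through the ER stress response element (ERSE), a CCAAT box for NF-Y placed a fixed distance from a CCACG motif.

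That element is shown first because it is a sequence that several members share. Promoter letters were not used to pick the members. They were picked for ER function, however, and the element belongs to a response of the ER, so its share among them is not independent of the choice. Promoters were taken from RefSeq on GRCm38.p6, from 250 bases before to 50 after each annotated start, and 35 of the 44 members had an entry. The ERSE was searched on both strands as CCAAT, then 9 bases of any kind, then CCACG. It was found in 7 of the 35 members (20%), against 37 of 27025 genes with a promoter entry (0.137%). The CCAAT part alone lay in 26 of the 35 (74.3%) against 41.1% of all genes, and the CCACG part alone in 25 (71.4%) against 35.5%, both counts including the matches inside an ERSE. Each site follows, written 5′ to 3′ along the strand that reads CCAAT first, with the fixed letters of the element in capitals.
Hspa5: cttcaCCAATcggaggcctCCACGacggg
Hsp90b1, nearer site: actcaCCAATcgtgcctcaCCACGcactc
Hsp90b1, farther site: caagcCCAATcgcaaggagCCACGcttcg
Calr: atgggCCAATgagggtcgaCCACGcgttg
Canx: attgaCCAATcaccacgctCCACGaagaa
Dnajc3: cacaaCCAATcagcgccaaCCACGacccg
Creld2: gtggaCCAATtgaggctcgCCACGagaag
Pdia6: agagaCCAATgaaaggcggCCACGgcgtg

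On the GRCm38 assembly, these 29-base stretches lay at chr2:34772020-34772048 for Hspa5 and at chr10:86705528-86705556 and chr10:86705633-86705661 for Hsp90b1. They lay at chr8:84847070-84847098 for Calr, chr11:50325795-50325823 for Canx and chr14:118937822-118937850 for Dnajc3. Those of Creld2 and Pdia6 lay at chr15:88819515-88819543 and chr12:17266486-17266514. The distance from the start ranged from 65 bases in Hspa5 to 212 in the farther site of Hsp90b1. By GENCODE M21 the Hspa5 site overlapped the Hspa5 gene itself, whose annotated start there is earlier than in RefSeq, and none of the others overlapped a gene. The sites of Calr, Creld2 and the nearer one of Hsp90b1 read along the opposite strand to the gene. A second element searched, the XBP1-type TGACGTG, was found in Hspa5 alone among the 35 members (2.86%, against 2.22% of all genes), and an ATF4-type element, TGATGNAAN, in Herpud1 alone (2.86%, against 4.5%). The matches describe letters in these windows and not binding.

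The windows of Dnajc3 and Calr are given whole up to the start because these ERSE genes moved in opposite directions between EILP_WT and ILCP, as described below. Each runs 5′ to 3′ on the gene's strand over the 250 bases before the RefSeq start. The capitals mark the ERSE, which in Calr appears as its reverse complement.
Dnajc3, chr14:118937682-118937931, plus strand: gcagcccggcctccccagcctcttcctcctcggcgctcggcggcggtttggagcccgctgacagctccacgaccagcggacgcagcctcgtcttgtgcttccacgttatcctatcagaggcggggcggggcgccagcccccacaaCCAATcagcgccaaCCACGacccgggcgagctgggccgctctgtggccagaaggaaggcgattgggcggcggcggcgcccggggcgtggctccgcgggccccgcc
Calr, chr8:84846932-84847181, minus strand: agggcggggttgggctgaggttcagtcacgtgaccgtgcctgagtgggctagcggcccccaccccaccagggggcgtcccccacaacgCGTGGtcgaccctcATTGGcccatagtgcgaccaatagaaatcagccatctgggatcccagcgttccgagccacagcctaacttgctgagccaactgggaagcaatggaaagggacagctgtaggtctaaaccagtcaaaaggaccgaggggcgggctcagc

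The deleted gene checked the labels. Tcf7, which encodes the transcription factor TCF-1, read 9.89, 10.81 and 11.14 in EILP_WT and 6.97 and 7.65 in EILP_KO on the log2 scale, a difference of -3.34 (SE 0.32, limma adjusted p = 0.00151). Gate genes followed the sorts: Thy1 read 4.85 to 4.99 in ILCP and at most 2.46 elsewhere, and Zbtb16 read 4.28 to 4.60 in sEILP and 6.71 to 6.96 in cEILP. The libraries came in 2 batches named in the labels, and both sEILP libraries were in batch 1. Between 747 and 2575 genes per library stood at the library's lowest value (-4.83 to -4.41), most of them in EILP_WT replicate 3, and read depth is unknown. Tests used limma with group and batch terms over 12572 genes, with a call at an adjusted p under 0.05, and all 44 members were tested. Groups also differed in markers of other cell types, summed on the linear scale near CPM. The 8 granulocyte and monocyte progenitor genes summed to 1080 to 2180 in ALP, 3230 to 3420 in sEILP, 1230 to 2540 in cEILP, 489 to 3970 in EILP_WT, 4290 to 5540 in EILP_KO and 160 to 913 in ILCP. Mpo, at 11.34 to 11.43 in sEILP, weighed most in the sEILP sum. In sEILP against ALP, 3 of the 8 estimates were positive and 5 negative. Without overlap, 3 genes were higher in sEILP and 2, Lyz2 and Csf1r, were lower. The 6 plasma cell and late B lineage genes found in the table, a secretory lineage, summed to 243 to 478 in ALP and 251 to 306 in ILCP. Their sums were 52.1 to 276 in sEILP, 40.4 to 100 in cEILP, 70.4 to 160 in EILP_WT and 76.5 to 108 in EILP_KO. Sdc1 weighed heavily in these sums, at 7.07 to 7.46 in ALP, 7.02 to 7.82 in ILCP and at most 5.17 elsewhere. The list did not move as a set. Prdm1 stood at the lowest value in all 3 ALP libraries, and Cd79b reached its highest value, 6.96, in EILP_WT. The part that such cells took in the values below was not tested.

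Most of these genes were expressed at similar levels through all 6 groups. The span between a member's highest and lowest group mean had a median of 0.62 log2 units, against 1.71 over all tested genes, and was under 1 for 33 of the 44. It ran from 0.22 for Sec63, a J-domain partner of the channel, to 5.04 for Ddit3, which encodes the stress factor CHOP and stood at the lowest value in 1 library. All tested genes were not matched to the members in level or in spread between libraries. In EILP_KO against EILP_WT, for example, the median SE was 0.26 for the members and 0.68 for all tested genes. A limma F test over the 6 groups called 4 members (9.09%), Erp29, Calr, Dnajc3 and Ssr3, with adjusted p of 0.00145, 0.00166, 0.00355 and 0.0318. That share was close to the 8.36% called among all tested genes. The group with the highest mean was EILP_KO for 20 members, ILCP for 10 and sEILP for 8. The lowest mean was in ILCP for 16 members, in cEILP for 12 and in ALP for 11. The same counts were not made over all tested genes, so these are not read as particular to the members. EILP_KO, ILCP and sEILP had 2 libraries each and the other groups 3.

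**Figure D1:**
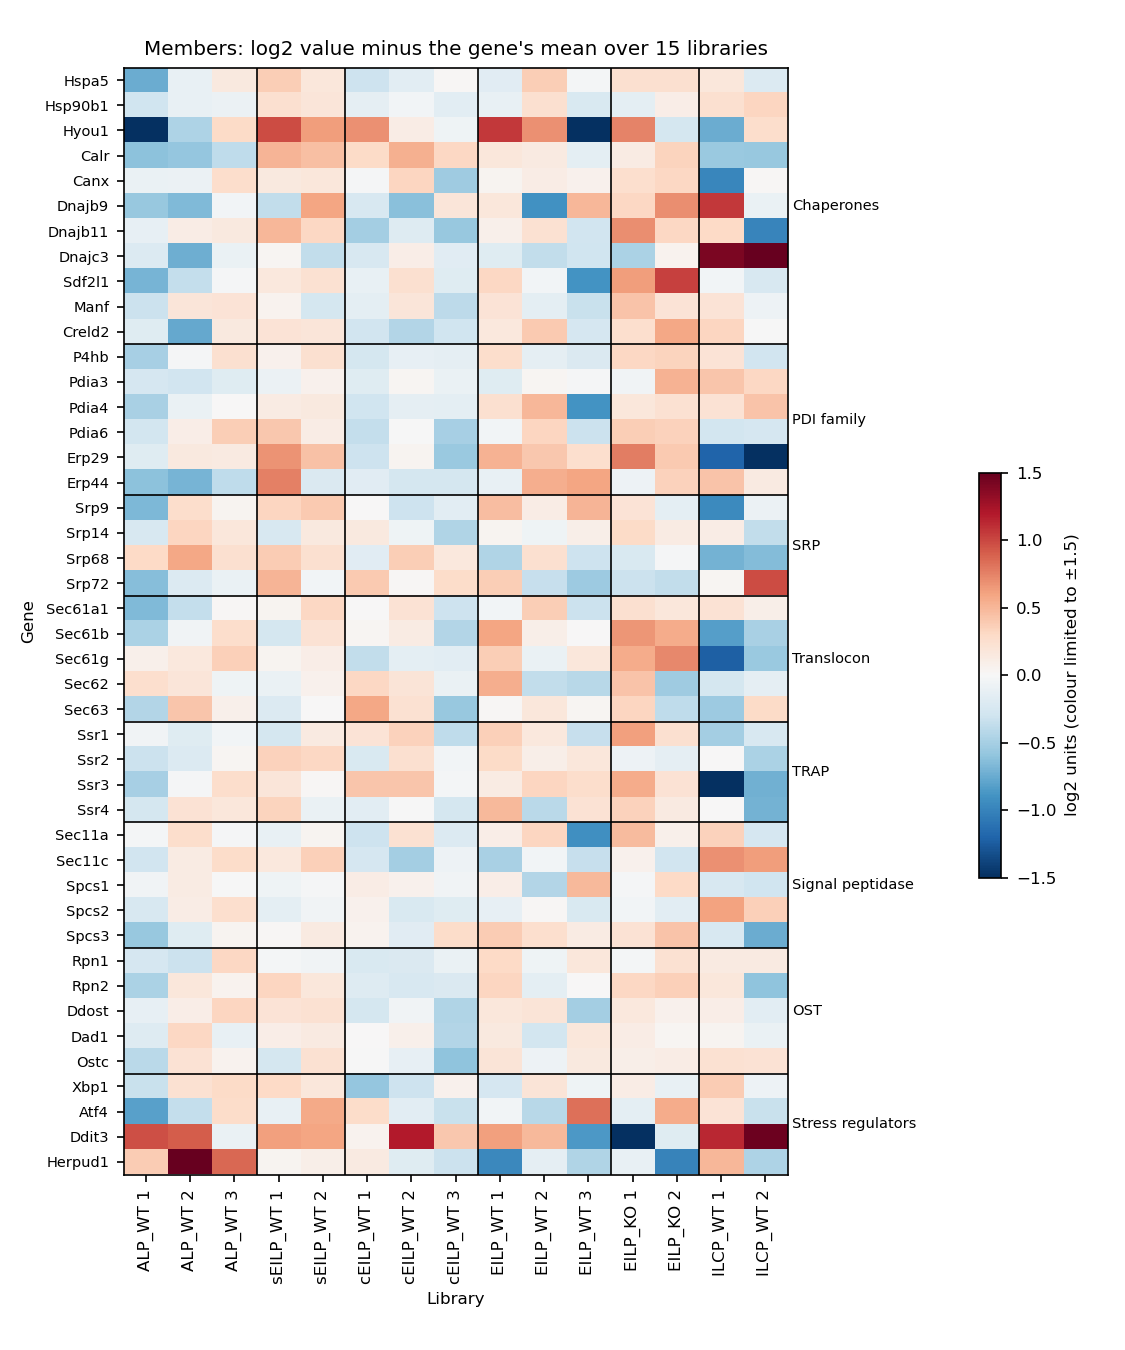
Colour gives each member's log2 value minus its own mean over the 15 libraries, with genes in the order of their roles and libraries in columns by group. Most cells lie near 0, and the strongest colours belong to single genes such as Dnajc3 (high in both ILCP libraries) and Erp29 (low in both), or to low-expressed genes such as Ddit3 and Hyou1.

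Among the chaperones, Dnajc3 set ILCP apart. Dnajc3 (chr14:118937976-118981697, plus strand) encodes p58IPK, a J-domain cochaperone of BiP in the ER lumen. Its log2 level was 9.19 and 9.30 in ILCP. The other 13 libraries read 7.57, 7.04 and 7.68 in ALP, 7.81 and 7.41 in sEILP, 7.54, 7.88 and 7.60 in cEILP, 7.59, 7.41 and 7.48 in EILP_WT, and 7.30 and 7.83 in EILP_KO. Both ILCP libraries lay above every other one, and the other 5 groups overlapped. The rise from EILP_WT to ILCP was 1.75 log2 units (SE 0.23, 3.35-fold, limma adjusted p = 0.000888), and it was 1.69 within batch 1 and 1.82 within batch 2. Against cEILP the difference was 1.57 (SE 0.23, limma adjusted p = 0.00187), and against ALP, of the same genotype as ILCP, it was 1.82 (SE 0.23, limma adjusted p = 0.000444). All 3 calls held when any 1 library of the compared groups was left out.

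Calr was the chaperone called between stages before ILCP. Calr (chr8:84841850-84846934, minus strand) encodes calreticulin, the soluble lectin chaperone that binds glycoproteins and calcium in the ER. Its log2 level was 9.22, 9.25 and 9.45 in ALP, 10.34 and 10.29 in sEILP, 10.12, 10.37 and 10.14 in cEILP, 10.00, 9.97 and 9.69 in EILP_WT, 9.96 and 10.17 in EILP_KO, and 9.28 and 9.27 in ILCP. The EILP libraries of all 4 kinds lay above every ALP and ILCP library, and ALP and ILCP overlapped.

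Calr rose by 0.99 log2 units from ALP to sEILP (SE 0.15, 1.99-fold, limma adjusted p = 0.0119) and by 0.58 from ALP to EILP_WT (SE 0.12, 1.49-fold, limma adjusted p = 0.0285). It was lower in ILCP than in cEILP by 0.93 (SE 0.14, limma adjusted p = 0.00163) and lower than in EILP_WT (difference -0.61, SE 0.14, limma adjusted p = 0.0194). The call against cEILP was the only one of these that held without any 1 library of its groups. That of sEILP against ALP was lost without ALP replicate 1 or either sEILP library (limma adjusted p 0.079 to 0.108), and that of EILP_WT against ALP without ALP replicate 1 or 2 or EILP_WT replicate 1 or 2 (0.0658 to 0.146). That of ILCP against EILP_WT was lost without EILP_WT replicate 1 or either ILCP library (0.057 to 0.0973). GENCODE M21 also annotates a pseudogene, Calr-ps, and how reads of near-identical copies were divided is not given in the sources used here.

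The other chaperones were not called. Hspa5, which encodes BiP, the main Hsp70 of the ER and the partner that DNAJC3 serves, read 9.50, 10.14 and 10.39 in ALP, 10.62 and 10.42 in sEILP, 9.94, 10.09 and 10.27 in cEILP, 10.08, 10.62 and 10.22 in EILP_WT, 10.49 and 10.49 in EILP_KO, and 10.42 and 10.04 in ILCP. The ILCP and EILP_WT values overlapped, while both sEILP and both EILP_KO libraries lay above all ALP and cEILP libraries. The ILCP minus EILP_WT difference was -0.10 with a 95% interval from -0.61 to 0.41 (limma adjusted p = 0.863). Hsp90b1, the ER form of Hsp90, stayed between 9.36 and 9.99 in all 15 libraries. Canx, the membrane-bound counterpart of calreticulin, was between 9.38 and 10.24 apart from 8.94 in ILCP replicate 1. Hyou1, a large Hsp70-like chaperone, varied most within groups, from 4.44 to 6.33 in ALP and from 3.73 to 7.10 in EILP_WT, where the low value was that of replicate 3. None of these 4 genes, nor Dnajb9, Dnajb11, Sdf2l1, Manf or Creld2, was called in any of the 7 comparisons.

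The 7 members with an ERSE in their promoter window did not move together in ILCP. In ILCP against EILP_WT, Dnajc3 rose and Calr fell, while the remaining 5 were not called. Their differences were -0.57 for Canx, -0.24 for Pdia6, -0.10 for Hspa5, 0.08 for Creld2 and 0.32 for Hsp90b1, with limma adjusted p between 0.231 and 0.921. In EILP_KO against EILP_WT and in sEILP against ALP all 7 estimates were positive, and Calr in sEILP against ALP was the only one called. The ranges of these estimates were 0.01 to 0.38 and 0.15 to 0.99. Most members were positive there, 81.8% and 77.3% of the 44, against 52.8% and 50.4% of all tested genes. Within batch 1 of EILP_KO against EILP_WT, Calr, Hsp90b1, Dnajc3 and Creld2 were slightly negative (-0.21 to -0.02).

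**Figure D2:**
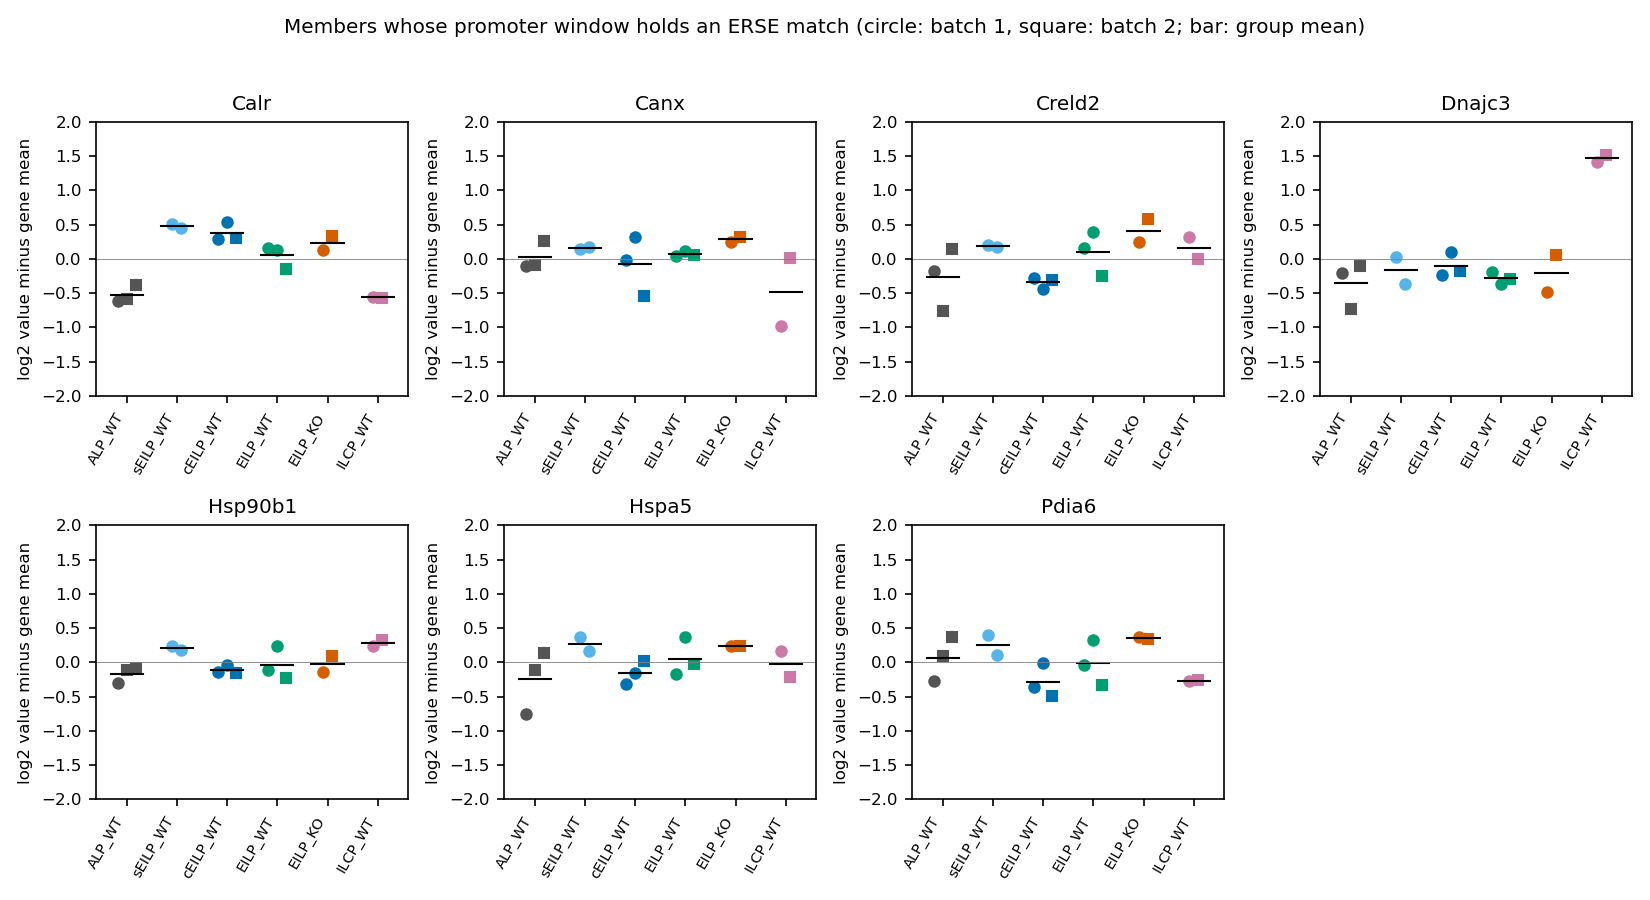
Each panel shows 1 of the 7 genes with an ERSE match, as log2 value minus the gene's mean over 15 libraries (vertical axis, the same in all panels) by group. Circles are batch 1 libraries, squares batch 2, bars group means. Dnajc3 is high in ILCP alone, Calr is low in ALP and ILCP, and the groups of the other 5 genes lie closer together.

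In the protein disulfide isomerase family, Erp29 fell in ILCP. Erp29 (chr5:121428590-121452506, minus strand) encodes a thioredoxin-fold protein of the ER lumen that lacks the redox-active cysteine pair of its relatives. Its log2 level was 6.09 and 5.75 in ILCP, against 7.11, 7.43 and 7.42 in ALP, 7.96 and 7.73 in sEILP, 6.98, 7.33 and 6.73 in cEILP, 7.81, 7.69 and 7.54 in EILP_WT, and 8.05 and 7.68 in EILP_KO. Both ILCP libraries lay below all others, and the cEILP libraries lay below those of sEILP, EILP_WT and EILP_KO. From EILP_WT to ILCP it fell by 1.73 log2 units (SE 0.21, 3.32-fold lower, limma adjusted p = 0.000515), with -1.66 within batch 1 and -1.80 within batch 2. The differences of ILCP from ALP and from cEILP were -1.43 (SE 0.21, limma adjusted p = 0.00116) and -1.06 (SE 0.21, limma adjusted p = 0.0108). The call against cEILP was lost without ILCP replicate 2 (-0.98, limma adjusted p = 0.0591), and those against EILP_WT and ALP held without any 1 library of their groups.

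Pdia3 (chr2:121413775-121438687, plus strand), which encodes ERp57, the isomerase that works with calreticulin and calnexin, went the other way. It read 9.93, 9.90 and 10.00 in ALP, 10.09 and 10.25 in sEILP, 10.00, 10.21 and 10.08 in cEILP, 10.00, 10.21 and 10.16 in EILP_WT, 10.13 and 10.70 in EILP_KO, and 10.60 and 10.49 in ILCP. The ILCP values exceeded all others but EILP_KO replicate 2. Pdia3 was higher in ILCP than in ALP by 0.61 log2 units (SE 0.15, limma adjusted p = 0.0176), a call lost without ALP replicate 2 (0.58, limma adjusted p = 0.0549) or ILCP replicate 1 (0.50, limma adjusted p = 0.129). P4hb, Pdia4, Pdia6 and Erp44, 3 further isomerases and the protein that retains ER oxidases, were called in no comparison. Their lowest and highest values were 9.27 and 10.10 for P4hb, 7.41 and 8.80 for Pdia4, 8.48 and 9.38 for Pdia6, and 6.41 and 7.86 for Erp44.

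Of the signal recognition particle, Srp68 was lower in ILCP than in ALP. Srp68 (chr11:116245166-116274217, minus strand) encodes the subunit that pairs with SRP72 on the particle's RNA. Its log2 level was 8.19, 8.46 and 8.13 in ALP, 8.27 and 8.13 in sEILP, 7.71, 8.26 and 8.04 in cEILP, 7.44, 8.12 and 7.58 in EILP_WT, 7.66 and 7.87 in EILP_KO, and 7.18 and 7.24 in ILCP. ILCP was below every other library, and all ALP libraries lay above those of EILP_WT and EILP_KO. The difference from ALP was -1.04 (SE 0.23, limma adjusted p = 0.0104). It was no longer called without ILCP replicate 1 (-1.03, limma adjusted p = 0.05) or ILCP replicate 2 (-1.06, limma adjusted p = 0.0591). Srp9 and Srp14, which form the arm of the particle that slows translation, and Srp72 were called in no comparison.

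At the channel, the small subunit gene Sec61g (chr11:16500530-16508484, minus strand) was the member called lower in ILCP. It read 4.43 and 5.10 in ILCP, 5.73, 5.82 and 6.01 in ALP, 5.70 and 5.76 in sEILP, 5.29, 5.51 and 5.50 in cEILP, 6.03, 5.56 and 5.83 in EILP_WT, and 6.22 and 6.38 in EILP_KO. ILCP lay lowest and EILP_KO highest, neither overlapping another group. Sec61g was lower in ILCP than in EILP_WT (difference -1.08, SE 0.29, limma adjusted p = 0.044) and than in ALP (-1.05, SE 0.29, limma adjusted p = 0.0312). These calls were lost without ILCP replicate 1 (-0.79 in both, limma adjusted p 0.247 and 0.174), without any of the ALP libraries (0.0583 to 0.0866) or without any of the EILP_WT libraries (0.052 to 0.109). Sec61a1, which encodes the channel itself, stood between 8.13 and 9.16, with 9.01 and 8.88 in ILCP. Sec61b, Sec62 and Sec63 were also called in no comparison. For Sec61b, however, both ILCP libraries (5.76 and 6.09) lay below all others, the lowest of which was 6.11 in ALP replicate 1.

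Ssr3 was the member of the TRAP complex that fell in ILCP. Ssr3 (chr3:65379655-65392623, minus strand) encodes the gamma subunit of TRAP, which sits beside the channel and aids the entry of some signal peptides. Its log2 level was 6.33 and 7.13 in ILCP, 7.36, 7.84 and 8.12 in ALP, 8.03 and 7.87 in sEILP, 8.27, 8.27 and 7.82 in cEILP, 7.98, 8.17 and 8.12 in EILP_WT, and 8.41 and 8.07 in EILP_KO. Both ILCP libraries were below all others, but they differed from each other more than the libraries of any other group did.

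The fall in Ssr3 was 1.38 log2 units from EILP_WT (difference -1.38, SE 0.27, limma adjusted p = 0.00917), -1.41 from cEILP (SE 0.27, limma adjusted p = 0.00837) and -1.02 from ALP (SE 0.27, limma adjusted p = 0.0254). Without ILCP replicate 1 these became -0.95, -0.98 and -0.64, with limma adjusted p of 0.111, 0.104 and 0.221, and none was called. The difference from ALP also lost its call without ALP replicate 2 or 3 (limma adjusted p 0.0642 and 0.0844). Ssr1, Ssr2 and Ssr4, the other subunits, were called in no comparison, and their ILCP minus EILP_WT estimates were negative as well, with a median of -0.42 over the 4 subunits.

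Signal peptidase genes split in ILCP. Sec11c, 1 of 2 genes for the catalytic subunit, read 7.66 and 7.61 in ILCP, 6.69, 7.10 and 7.26 in ALP, 7.14 and 7.34 in sEILP, 6.73, 6.47 and 6.90 in cEILP, 6.49, 6.94 and 6.63 in EILP_WT, and 7.05 and 6.69 in EILP_KO. Spcs2 (chr7:99837569-99863462, minus strand), an accessory subunit, read 9.41 and 9.16 in ILCP, 8.56, 8.91 and 9.05 in ALP, 8.65 and 8.75 in sEILP, 8.86, 8.57 and 8.62 in cEILP, 8.68, 8.82 and 8.57 in EILP_WT, and 8.76 and 8.64 in EILP_KO. For both genes ILCP lay above every other library. Spcs3 (chr8:54520433-54529998, minus strand), the accessory subunit needed for cleavage, read 8.70 and 8.19 in ILCP, 8.37, 8.75 and 8.98 in ALP, 8.95 and 9.07 in sEILP, 8.99, 8.77 and 9.21 in cEILP, 9.32, 9.19 and 9.06 in EILP_WT, and 9.15 and 9.36 in EILP_KO. Here ILCP overlapped ALP and lay below the EILP libraries of all 4 kinds.

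In ILCP, Sec11c was higher than in EILP_WT by 0.94 log2 units (SE 0.24, limma adjusted p = 0.0354) and than in cEILP by 0.92 (SE 0.24, limma adjusted p = 0.0362). Spcs2 was higher than in cEILP by 0.61 (SE 0.17, limma adjusted p = 0.0494), and Spcs3 was lower than in EILP_WT (difference -0.76, SE 0.21, limma adjusted p = 0.0463). All 4 calls were close to the threshold. The Sec11c and Spcs2 calls against cEILP were lost without any 1 of the 5 libraries compared (limma adjusted p 0.0675 to 0.181 and 0.0575 to 0.299). The Sec11c call against EILP_WT was lost without EILP_WT replicate 1 or 3 or either ILCP library (0.0857 to 0.169), and that of Spcs3 without EILP_WT replicate 1 or 2 or ILCP replicate 2 (0.0901 to 0.335), the last with an estimate of -0.42. Sec11a, the other catalytic gene, and Spcs1 were called in no comparison. A pseudogene of Spcs2, Spcs2-ps, is annotated in GENCODE M21.

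**Figure D3:**
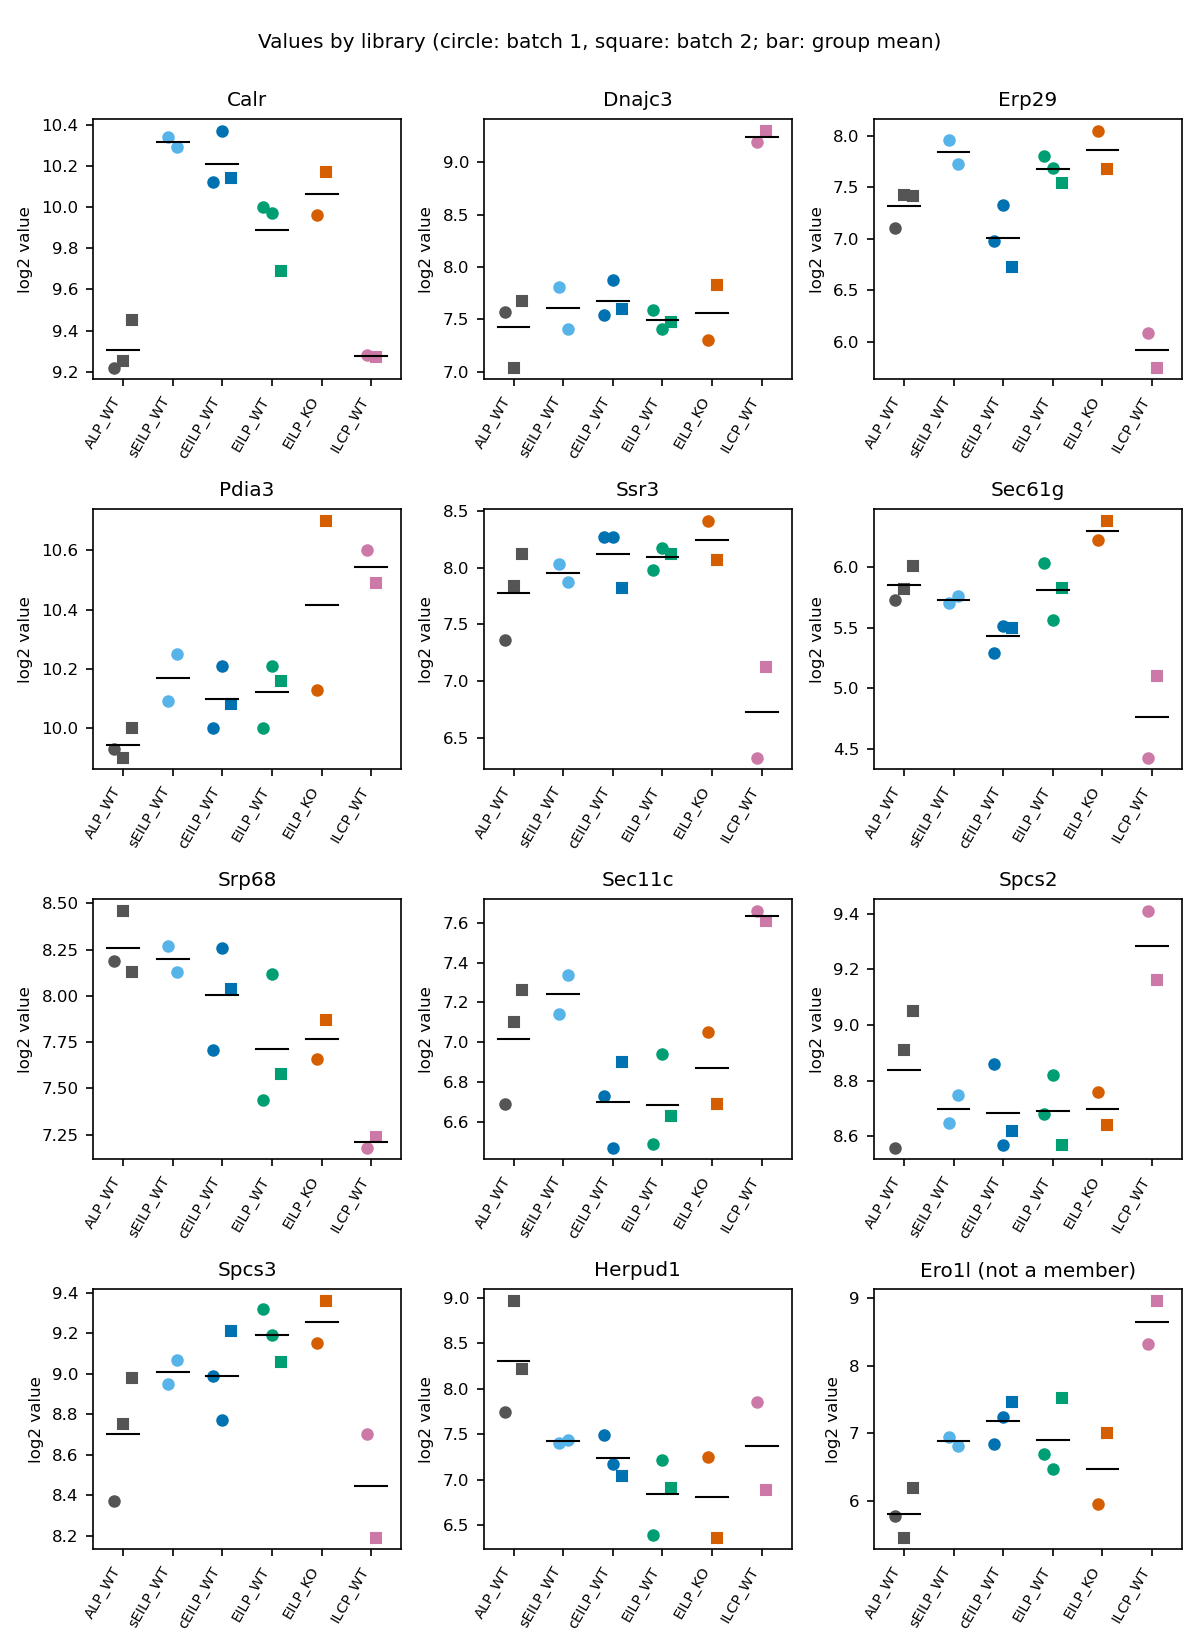
Log2 value (vertical axis, its own range in each panel and not starting at 0) by group for the 11 members called in at least 1 comparison and for Ero1l, a pathway gene outside the 44. Circles are batch 1 libraries, squares batch 2, bars group means. ILCP stands above the rest for Dnajc3, Sec11c and Spcs2 and below it for Erp29, Ssr3, Sec61g and Srp68, while Calr is high in the EILP groups and Herpud1 is high in ALP.

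The 5 oligosaccharyltransferase genes varied least. Rpn1, Rpn2 and Ddost encode core subunits, Dad1 a small one and Ostc the subunit that links the enzyme to the channel. Rpn1 stayed between 8.59 and 9.23, Rpn2 between 8.59 and 9.55, Ddost between 8.50 and 9.33, Dad1 between 7.03 and 7.77 and Ostc between 6.56 and 7.40. The median span of their group means was 0.47 log2 units. None was called in any comparison or in the F test.

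Of the stress regulators, Herpud1 fell from ALP to EILP_WT. Herpud1 (chr8:94386438-94395377, plus strand) encodes HERP, a membrane protein of ER-associated degradation whose transcript is induced by ER stress. Its log2 level was 7.74, 8.97 and 8.22 in ALP, 7.40 and 7.44 in sEILP, 7.49, 7.17 and 7.04 in cEILP, 6.39, 7.22 and 6.91 in EILP_WT, 7.25 and 6.36 in EILP_KO, and 7.86 and 6.89 in ILCP. ALP lay above the EILP libraries of all 4 kinds, and only ILCP replicate 1 reached the ALP range. The difference of EILP_WT from ALP was -1.53 (SE 0.37, 2.89-fold lower, limma adjusted p = 0.0462), with -0.94 within batch 1 and -1.69 within batch 2. It lost its call without any 1 of ALP replicates 2 and 3 or the 3 EILP_WT libraries, with limma adjusted p from 0.0621 to 0.136.

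Xbp1 and Atf4, the transcription factors, were called in no comparison. Xbp1 ranged from 7.20 to 8.16, and these gene-level values do not separate its spliced form, which is the active one. Atf4 ranged from 4.90 to 6.55. Ddit3 read between 1.84 and 4.17 in 14 libraries and stood at the lowest value, -4.60, in EILP_KO replicate 1, so its EILP_KO minus EILP_WT estimate of -3.94 rests on that library and is 0.68 within batch 2.

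Within 1 library, the difference between 2 members does not depend on that library's scaling by a constant. These pairs were picked after their values were seen and are given without a test. Spcs2 minus Spcs3 was 0.72 and 0.97 log2 units in ILCP and between -0.72 and 0.19 in the other 13 libraries. Dnajc3 minus Hspa5, the cochaperone against its Hsp70, was -1.23 and -0.74 in ILCP and between -3.21 and -1.93 elsewhere. Sec61g minus Sec61a1 was -4.58 and -3.78 in ILCP and between -3.59 and -2.40 elsewhere. In these 3 pairs ILCP did not overlap any other library. It overlapped them for Sec11c minus Sec11a (0.34 and 0.89, against -0.73 to 0.58), for Srp68 minus Srp72 (-1.15 and -0.26, against -0.35 to 1.42) and for Ssr3 minus the mean of Ssr1, Ssr2 and Ssr4 (-0.95 and 0.16, against 0.13 to 0.89). Calr minus Canx separated ALP (-0.73 to -0.58) from sEILP (0.20 and 0.27), cEILP (0.13 to 0.76), EILP_WT (-0.29 to 0.05) and EILP_KO (-0.21 and -0.06), but not from ILCP (-0.66 and 0.34).

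**Figure D4:**
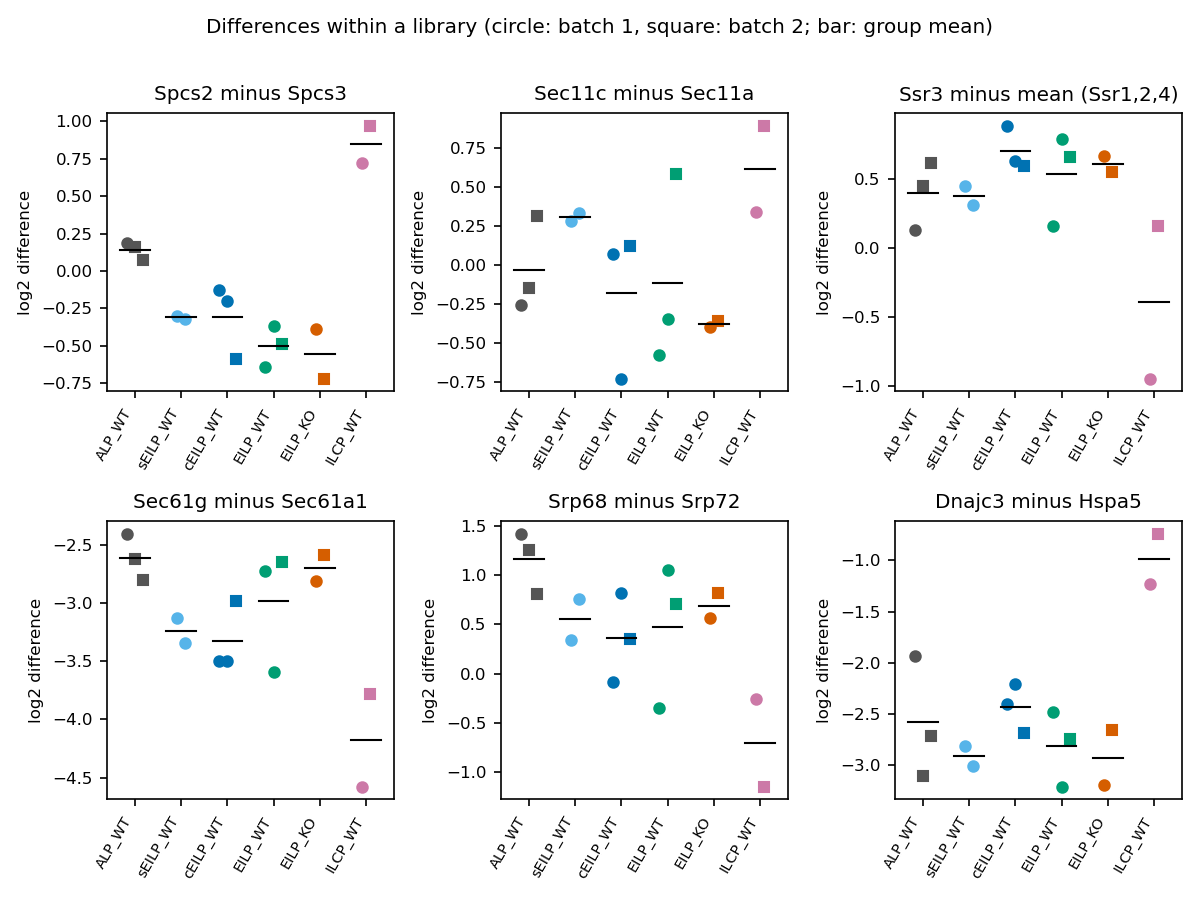
Each panel shows the log2 difference between 2 members, or between Ssr3 and the mean of the other TRAP subunits, in each library (vertical axis, its own range in each panel) by group. Circles are batch 1 libraries, squares batch 2, bars group means. The ILCP points stand apart from all others for Spcs2 minus Spcs3, Dnajc3 minus Hspa5 and Sec61g minus Sec61a1.

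Counted by comparison, the step from EILP_WT to ILCP had the most member calls. Dnajc3 and Sec11c rose, and Calr, Erp29, Sec61g, Ssr3 and Spcs3 fell, making 7 of 44 (15.9%) where 6.95% of all tested genes were called (2.61% higher and 4.34% lower). The median estimate over the members was -0.05, beside -0.06 over all tested genes. Against cEILP, ILCP had 3 members higher (Dnajc3, Sec11c, Spcs2) and 3 lower (Calr, Erp29, Ssr3), 13.6% against a background of 7.41% (2.69% higher and 4.72% lower). Against ALP it had 2 higher (Dnajc3, Pdia3) and 4 lower (Erp29, Sec61g, Srp68, Ssr3), 13.6% against 13.4% (5.56% higher and 7.86% lower), a share near the background. The 3 comparisons share the same ILCP libraries and are not independent.

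The split by direction in ILCP depended on the scaling. After cyclic loess scaling, the members called higher and lower were 4 and 3 against EILP_WT, 5 and 3 against cEILP, and 5 and 4 against ALP. The members' median estimate then turned from -0.05 to 0.10 against EILP_WT and from -0.03 to 0.12 against ALP. Calr and Spcs3 lost their calls against EILP_WT (limma adjusted p = 0.117 and 0.122), and Pdia3 and Spcs2 gained one. Under that scaling Hsp90b1 was also called higher in ILCP than in cEILP and ALP. When only the 2 groups compared entered the fit, limma called 0 members in each of the 3 comparisons.

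From ALP to EILP_WT, Calr rose and Herpud1 fell, and no other member was called. These were 2 of 44 (4.55%) where 3.21% of all tested genes were called (1.71% higher and 1.5% lower). Estimates were positive for 31 members (70.5%, against 49.5% of all tested genes), with a median of 0.09 against -0.01 over all tested genes. ALP replicate 1 was below the gene's own mean over 15 libraries for 39 of 44 members. The count of positive estimates without that library was not made here. Both calls were lost when only these 2 groups were fitted (limma adjusted p = 0.181 for Calr and 0.152 for Herpud1).

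Between ALP and sEILP, Calr alone was called (2.27% of members against 0.803% of all tested genes, or 0.493% in the higher direction). The members leaned upwards in sEILP: 34 of 44 estimates were positive (77.3%, against 50.4% of all tested genes), with a median of 0.25 against 0.01. For 15 members (34.1%) both sEILP libraries lay above all 3 ALP libraries, as they did for 14.7% of all tested genes. Among them were Calr, Hsp90b1, Hyou1, Erp29 and Erp44, with estimates of 0.99, 0.39, 1.07, 0.40 and 0.91 log2 units. The lean rested largely on 1 library. ALP replicate 1 was below the gene's own mean over 15 libraries for 39 of 44 members, and without it 22 estimates were positive.

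Between sEILP and cEILP, limma called no member and no gene at all (0%), while 4 members, Erp29, Dnajb11, Sec11c and Pdia6, and 5.15% of all tested genes had an unadjusted p under 0.05. Estimates were positive for 8 of 44 members (18.2%, against 48.3% of all tested genes) and negative for 36, with a median of -0.24 against -0.02 over all tested genes. For 17 members (38.6%) all 3 cEILP libraries lay below both sEILP libraries, where 13.8% of all tested genes did. These 17 included 4 of the 6 disulfide isomerase family genes and 4 of the 5 oligosaccharyltransferase genes. Examples are Erp29 (-0.77, SE 0.22, limma adjusted p = 0.664), Dnajb11, an Hsp40 of the ER lumen (-0.70, SE 0.28, limma adjusted p = 0.878), and Xbp1 (-0.54, SE 0.25, limma adjusted p = 0.984). The granulocyte and monocyte progenitor genes, at 3230 to 3420 in sEILP and 1230 to 2540 in cEILP, had a lower sum in cEILP, although 3 of the 8 had a positive estimate and Lyz2 was higher in all cEILP libraries (6.58 to 9.32) than in sEILP (5.63 to 5.83). Their part in the members' values was not tested.

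Between EILP_KO and EILP_WT limma called 0 of the 44 members, and it called 0.103% of all tested genes. At an unadjusted p under 0.05 there were 2 members, Sdf2l1 and Ddit3, and 8.7% of all tested genes. Estimates were positive for 36 of 44 members (81.8%, against 52.8% of all tested genes), with a median of 0.17 against 0.04. Without EILP_WT replicate 3, 29 estimates were positive. All 11 chaperone and cofactor estimates were positive, with a median of 0.33. Within batch 1, however, the differences were negative for Calr (-0.03), Hsp90b1 (-0.21), Dnajc3 (-0.20), Creld2 (-0.02) and Hyou1 (-0.13). Within batch 2, where replicate 3 is the EILP_WT library, all were positive. The 8 granulocyte and monocyte progenitor genes were also positive, 8 of 8, with a median estimate of 1.99, and their part in the members' values was not tested.

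Sdf2l1, which encodes a partner of ER Hsp40 proteins, had the largest positive estimate in that comparison. It read 7.09 and 7.49 in EILP_KO and 6.78, 6.42 and 5.57 in EILP_WT, without overlap. The difference was 1.06 log2 units (SE 0.34, unadjusted p = 0.0093, limma adjusted p = 0.438). It was 0.49 within batch 1 and 1.91 within batch 2, where the EILP_WT library is replicate 3, the one at 5.57. Both EILP_KO libraries lay above all EILP_WT libraries for 7 members (15.9%) where 9.59% of all tested genes did, and below them for Ssr2 alone, where 9.62% did.

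**Figure D5:**
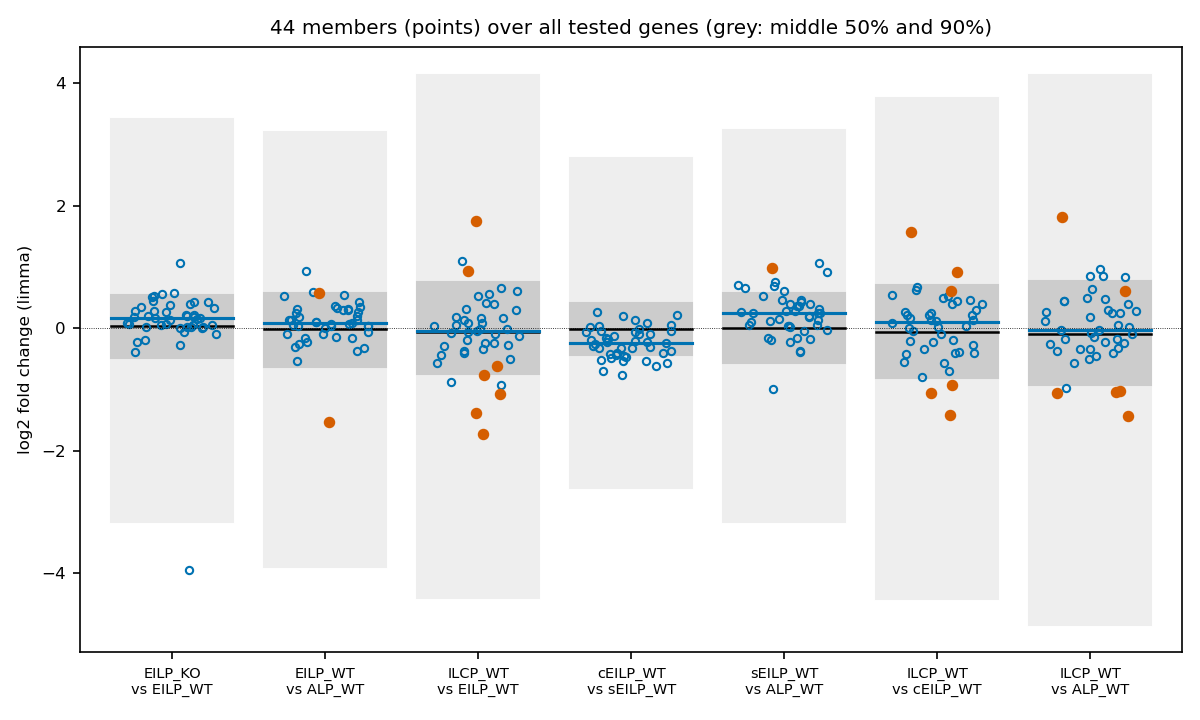
Log2 fold change fitted by limma (vertical axis) for the 44 members in 7 comparisons. Open circles are members that were not called, filled circles members that were, blue lines the members' median, black lines the median of all tested genes, and grey bands the middle 50% and 90% of all tested genes. The members lie mostly within the middle 50% band, with medians of 0.25 in sEILP against ALP and -0.24 in cEILP against sEILP.

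Other genes of the same pathways were taken from a list of 118 found in the table, of which 117 were tested. They covered regulators of the unfolded protein response, ER-associated degradation, further folding and redox enzymes, further targeting and insertion factors, glycosylation and ER exit. The calls were 1 higher and 3 lower in ILCP against EILP_WT, 4 and 4 in ILCP against cEILP, 3 and 7 in ILCP against ALP and 1 and 2 in EILP_WT against ALP, with none in the other 3 comparisons. In that order these were 3.42%, 6.84%, 8.55% and 2.56% of the 117, against 6.95%, 7.41%, 13.4% and 3.21% of all tested genes. The F test called 7 of the 117 (5.98%), against 8.36% of all tested genes. Each share was below that of all tested genes, so the calls below describe single genes and not the pathways.

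Ero1l, which encodes the oxidase that recharges protein disulfide isomerase, had the largest change among those named here. It read 5.78, 5.46 and 6.20 in ALP, 6.95 and 6.82 in sEILP, 6.84, 7.25 and 7.46 in cEILP, 6.70, 6.47 and 7.53 in EILP_WT, 5.95 and 7.01 in EILP_KO, and 8.32 and 8.96 in ILCP. ILCP was above every other library, and ALP lay below the sEILP, cEILP and EILP_WT libraries. Ero1l rose by 2.92 log2 units from ALP to ILCP (SE 0.29, limma adjusted p = 6.72e-05) and by 1.64 from EILP_WT to ILCP (SE 0.29, limma adjusted p = 0.00533). Its rise from ALP to EILP_WT, 1.29 (SE 0.26, limma adjusted p = 0.0221), lost its call without EILP_WT replicate 3 (1.10, limma adjusted p = 0.133).

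Some other pathway genes were lower in a later group. Tram1, which encodes a membrane protein beside the channel that helps signal peptides enter, was lower in EILP_WT than in ALP (difference -1.04, SE 0.17, limma adjusted p = 0.0055). Cnpy3, a cochaperone of the ER Hsp90 for Toll-like receptors, was lower in ILCP than in EILP_WT (-1.40, SE 0.26, limma adjusted p = 0.00682), which was lost without ILCP replicate 1 (-1.10, limma adjusted p = 0.0725), and than in ALP (-1.55, limma adjusted p = 0.00231). Sec13, a coat subunit of vesicles leaving the ER, was lower in ILCP than in EILP_WT (-0.89, SE 0.22, limma adjusted p = 0.0324), a call lost without EILP_WT replicate 1 or 2 or ILCP replicate 2 (0.0628 to 0.195).

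In ILCP against cEILP, Surf4, a cargo receptor for ER exit, was higher by 0.74 log2 units (limma adjusted p = 0.00832), and it was higher than in ALP by 0.59. Qsox1, a sulfhydryl oxidase, was higher than in cEILP by 1.54 (limma adjusted p = 0.0317), and Ube2j1, a ubiquitin-conjugating enzyme of ER-associated degradation, by 1.21 (limma adjusted p = 0.0168). Txndc11, a thioredoxin-domain protein, was lower than in cEILP (difference -2.15, limma adjusted p = 0.0218). Each of these 4 calls was lost without ILCP replicate 1, with estimates of 0.71, 1.67, 0.99 and -1.46 (limma adjusted p 0.0597 to 0.209), and some also without another library. In ILCP against ALP, Emc2, a subunit of the membrane insertase EMC, and Sil1, the nucleotide exchange factor of BiP, had differences of -1.04 and -0.98, lost without ILCP replicate 2 (-0.64 and -1.12, limma adjusted p = 0.328 and 0.102). Cnpy2, a relative of Cnpy3, was lower in ILCP than in cEILP (-0.85, limma adjusted p = 0.0376) and than in ALP (-0.73, limma adjusted p = 0.0483), and both calls were lost without ILCP replicate 2 (-0.50 and -0.33, limma adjusted p = 0.257 and 0.473).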

How the data were processed

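The deposited table holds log2 expression values for 12798 genes in 15 libraries. Powers of 2 of these log2 values sum to between 998697 and 999292 per library, and each library has nearly the same value distribution, so the deposited scale is taken as normalized log2 CPM; its offset is not given in the sources used here. Per the labels' protocols, RNA was extracted with the RNeasy plus micro kit and libraries were made with SMARTer Ultra Low Input and Nextera XT kits. The build mm10 and the tools STAR 2.5.2b, RSEM 1.2.23, bcl2fastq 2.17 and limma are named in the submitters' processing notes without their roles. A further 24 columns of the table are empty and unnamed and were not used.

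Genes at a log2 value of 0 or more in at least 2 libraries (12572) were tested on the deposited log2 values with limma 3.58.1 in R 4.3.3, with group and batch terms, all 15 libraries in 1 fit, an intensity trend and Benjamini-Hochberg adjustment over all tested genes. No pseudocount was added. SE is the moderated standard error, and intervals are 95%. The fit was tested on simulated data. Read depth is unknown, so no counting error can be given.

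The members and lists were chosen with earlier results of these data known. Values per library are given for every member called in a comparison or by the F test. Other pathway genes were named where they were called with a mean above the median of tested genes, at most 4 in each direction per comparison, by size of change. Hyou1, Hspa5, Canx, Sdf2l1, Ddit3 and the gene pairs were singled out after their values were seen. Of the marker lists, those for mast cells and basophils, plasmacytoid dendritic cells, erythroid cells, neutrophils, mature T cells and the sort gates are given among the other observations. Gene coordinates are from GENCODE M21 (GRCm38) and promoter sequences from RefSeq (GRCm38.p6).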

Additional observations from a re-analysis of the deposited data

How the results depend on the processing

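Main calls rested on the spread shared by all 6 groups. With only the compared groups in the fit, limma called 0 members in EILP_WT against ALP, ILCP against EILP_WT, sEILP against ALP, ILCP against cEILP and ILCP against ALP. Without the intensity trend it called 0, 4 and 0 members in the first 3 of these and 2 in the F test. With batch 1 alone there were 1 in EILP_WT against ALP, 4 in ILCP against EILP_WT, 2 in ILCP against ALP and 2 in the F test. With batch 2 alone there were 0 in the comparisons of EILP_WT with ALP and of ILCP with EILP_WT, cEILP and ALP, with fewer libraries. The sEILP comparisons could not be made in batch 2. The cause of these losses was not tested.

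Leaving out 1 library at a time gave 0 to 1 members called in EILP_KO against EILP_WT (1 without EILP_KO replicate 2), 0 to 1 in EILP_WT against ALP, 3 to 5 in ILCP against EILP_WT, 0 in every case in cEILP against sEILP, 0 to 1 in sEILP against ALP, 3 to 5 in ILCP against cEILP, 3 to 6 in ILCP against ALP and 3 to 5 in the F test. Where a group kept 1 library, it was assumed to vary like the others. Positive estimates numbered 29 to 34 in EILP_KO against EILP_WT, 6 to 12 in cEILP against sEILP and 22 to 35 in sEILP against ALP. Other low-value filters, repeated quantile scaling, no batch term and robust variance kept every count of calls within 1.5 times. Over the 42 single-gene calls that were recomputed, no estimate changed sign, and 253 of the 675 alternative values lost the call.

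Same-numbered libraries of different groups did not deviate together: over 33 such pairs the correlation of deviations from the group means ran from -0.073 to 0.049, and 5 of 15 libraries correlated best with their own number. The numbers are therefore not treated as a pairing. With the replicate number as a block, EILP_WT against ALP had 1 member called, ILCP against EILP_WT 5, ILCP against ALP 5, ILCP against cEILP 6, sEILP against ALP 1, the remaining comparisons 0 and the F test 4. No pseudocount alternative applies to values deposited on a log scale.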

Other observations

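The remaining marker lists, summed on the linear scale near CPM, also differed between groups. Such a sum follows mainly the highest genes of its list. Mast cell and basophil genes (5 of 6 in the table) summed to 12.1 to 51.7 in ALP, 1090 to 1130 in sEILP, 1100 to 1990 in cEILP, 576 to 971 in EILP_WT, 343 to 510 in EILP_KO and 90 to 757 in ILCP. Cpa3, at 9.89 to 10.00 in sEILP and 1.76 to 3.49 in ALP, made up most of the sEILP sum. In sEILP against ALP 3 of the estimates were positive and 2 negative, with 2 genes higher and 2 lower without overlap. Plasmacytoid dendritic cell genes (6 of 6) summed to 1340 to 2060 in ALP, 1390 to 1970 in sEILP, 373 to 987 in cEILP, 831 to 1880 in EILP_WT, 1370 to 2250 in EILP_KO and 549 to 562 in ILCP. The highest of these was Irf8 in sEILP (10.28 to 10.84) and Ccr9 in ILCP (8.27 to 8.77). Although the sums of sEILP and ALP were alike, all 6 estimates of sEILP against ALP were negative, 5 of them without overlap. Erythroid genes (5 of 6) summed to at most 326 outside EILP_KO and to 204 to 1290 in EILP_KO. Neutrophil genes (6 of 6) summed to at most 209 outside cEILP, where the highest library reached 794, and mature T cell genes (5 of 6) to between 10 and 129 in all libraries. The 12 gate and progenitor genes summed to 2410 to 3290 in ALP, 4520 to 4560 in sEILP, 5920 to 6940 in cEILP, 4600 to 6770 in EILP_WT, 3250 to 3740 in EILP_KO and 7250 to 9100 in ILCP.

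Il7r, which encodes the interleukin-7 receptor alpha chain, stood at the lowest value in 1 EILP_WT library and reached 7.58 in another, while both EILP_KO libraries were between -1.30 and -0.99.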
